A study of Saccharomyces cerevisiae with 4 samples.

Results

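The 9 genes described here encode the enzymes that build, desaturate, elongate and activate fatty acids in Saccharomyces cerevisiae: ACC1, FAS1, FAS2, OLE1, ELO1, ELO2, ELO3, FAA1 and FAA4. They were taken from a list of names chosen by function, though with earlier results of these data known, and each was matched by the platform annotation to 1 probe, so that 9 of 6189 features on the arrays were members. On each of 4 arrays with 2 channels, total RNA of abf1-1 cells was set against total RNA of wild type cells. The abf1-1 allele makes Abf1, an essential DNA-binding factor, temperature-sensitive, so the gene is still present. Both strains were grown in YPAD, a rich medium, at 30 °C to an OD600 between 1.0 and 1.2, received an equal volume of medium at 42 °C, and were held at 36 °C for 45 min. Mutant and wild type thus shared the heat shift, and no array compared cells before and after it. The sources used here do not give the strain backgrounds, the dyes or the cultures behind each array, so a p-value covers the variation among the 4 arrays, part or all of which may be technical.

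Each deposited value is a log ratio of the channels, taken as log2. The labels and the table name neither the log base nor the strain in the numerator, so the deposited signs are kept and no gene is called higher in the mutant. Arrays 1 and 3 resembled each other over all probes (Pearson r 0.742), as did arrays 2 and 4 (0.864), whereas r between the pairs lay between -0.221 and 0.050 (r across probes, which are not independent). Nothing in the labels parts the arrays this way, and whether the dyes were swapped on some arrays is not known. If they were and the ratios were not turned, means over the 4 arrays would join opposed directions. The main pair values are therefore given side by side. Means with the signs of arrays 2 and 4 turned are given for members and called genes whose sign they change. For the other lists, numbers of negative means after that turn are not given. ABF1 itself had a mean log2 ratio of 1.62 ± 0.43 (SD, n = 4), with the same sign on all arrays, but the allele is no deletion and this value does not check the labels. The ratios came without spot brightness, and precision is limited by the number of arrays.

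Fatty acid synthesis in yeast starts in the cytosol, where acetyl-CoA carboxylase makes malonyl-CoA and the fatty acid synthase complex joins it into long saturated chains. A desaturase of the endoplasmic reticulum then places the double bond that keeps membranes fluid, and elongases of the same membrane lengthen chains, up to the very long ones of sphingolipids. Acyl-CoA synthetases activate free fatty acids taken up from the medium or released from lipids. Many genes of the pathway are activated by Ino2 and Ino4 and restrained by Opi1, OLE1 is driven by Mga2 and Spt23, and older work described sites for Abf1, Rap1 and Reb1 in the FAS1 and FAS2 promoters.

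No member passed the test over the 4 arrays. In RNA of whole cultures, fewer cells with a transcript and less of it per cell cannot be told apart. Limma, with Benjamini-Hochberg adjustment over all 6189 features, called 0 of the 9 members at an adjusted p below 0.05, where it called 3.23% of all features. At an unadjusted p below 0.05 it found 2, ELO3 and FAA4, where 20.8% of all features lay below that limit. A fit with the pair of arrays as a term takes only the spread within pairs as error and ignores disagreement between them. In that fit ELO3, FAA1 and FAA4 passed with negative means, and 16.0% of all features did so. With either sign 3 of the 9 members passed it, beside 32.7% of all features. All 9 means were negative, with a median of -0.20, against 47.5% negative means and a median of 0.02 over all features. Of these means 4 lay within 0.1 of 0. Without array 2, 3 or 4 the number of negative means was 7, 8 and 7, beside 50.3%, 47.1% and 49.3% of all features. On arrays 1 and 3 alone it was 7, as on arrays 2 and 4 alone, beside 50.4% and 50% of all features. After turning the signs of arrays 2 and 4 it was 3, those of ACC1, FAS1 and FAS2, beside 46.1% of all features.

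**Figure D1:**
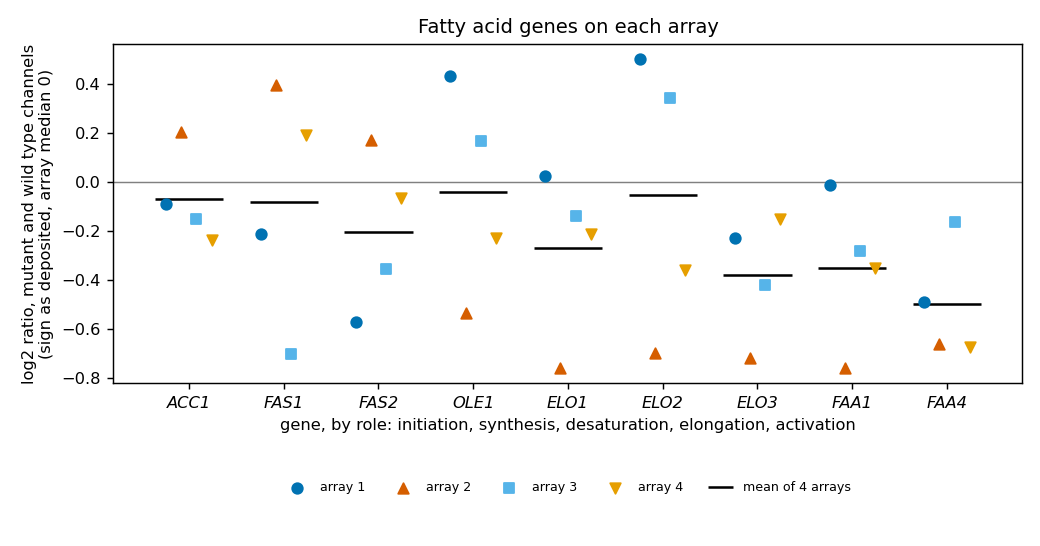
Log2 ratio of each member (vertical axis, sign as deposited, median of each array at 0) on arrays 1 to 4 (coloured symbols), with the mean of the 4 arrays as a bar. ELO3, FAA1 and FAA4 lie below 0 on every array, FAS1 is negative on arrays 1 and 3 and positive on arrays 2 and 4, and OLE1 and ELO2 do the reverse.

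ACC1 encodes acetyl-CoA carboxylase, the enzyme of the first committed step. The log2 ratio of ACC1 (YNR016C) was -0.09, 0.20, -0.15 and -0.24 on arrays 1 to 4. Only array 2 gave a positive value, and the SD of 0.19 was the smallest of the 9 members. The mean was -0.07 (95% interval -0.36 to 0.22), with a limma adjusted p of 0.793 over the 4 arrays, and lay between -0.16 (without array 2) and -0.012 (without array 4) when 1 array was left out.

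FAS1 and FAS2 encode the beta and alpha subunits that make up the fatty acid synthase complex. FAS1 (YKL182W) had log2 ratios of -0.21, 0.40, -0.70 and 0.19 on arrays 1 to 4. Both negative values were those of arrays 1 and 3 and both positive values those of arrays 2 and 4, so the mean of -0.08 ± 0.48 (SD, n = 4; limma adjusted p 0.865) stood for neither pair. FAS2 (YPL231W) had -0.57, 0.17, -0.36 and -0.07. Its values on arrays 2 and 4 also lay above those on arrays 1 and 3, but only array 2 was positive. The mean was -0.20 ± 0.33 (SD, n = 4; limma adjusted p 0.502), with -0.083 without array 1 and -0.33 without array 2. The pair means were -0.46 on arrays 1 and 3 and 0.29 on arrays 2 and 4 for FAS1, and -0.46 and 0.05 for FAS2, so the subunits had nearly the same mean on the first of these pairs. The 95% intervals of the 4-array means ran from -0.58 to 0.41 for FAS1 and from -0.58 to 0.17 for FAS2.

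OLE1 encodes the stearoyl-CoA desaturase, the enzyme that makes the unsaturated fatty acids of the cell. OLE1 (YGL055W) had log2 ratios of 0.43, -0.53, 0.17 and -0.23 on arrays 1 to 4. It was positive on arrays 1 and 3 and negative on arrays 2 and 4, the reverse of FAS1. FAS1 minus OLE1 was -0.65, 0.93, -0.87 and 0.42 on arrays 1 to 4, so the order of the 2 genes turned round from pair to pair. The mean of OLE1 was -0.04 ± 0.43 (SD, n = 4), with a 95% interval of -0.49 to 0.41 and a limma adjusted p of 0.921.

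The elongases ELO1, ELO2 and ELO3 differ in substrate: Elo1 extends medium chains, whereas Elo2 and Elo3 make the very long chains used in sphingolipids. ELO1 (YJL196C) had log2 ratios of 0.03, -0.76, -0.14 and -0.21, with the lowest value on array 2. ELO2 (YCR034W) had 0.50, -0.70, 0.34 and -0.36, positive on arrays 1 and 3 and negative on arrays 2 and 4 like OLE1. ELO3 (YLR372W) had -0.23, -0.72, -0.42 and -0.15, negative on every array. ELO2 had the largest spread of the 9 members, with an SD of 0.57 around a mean of -0.05 (limma adjusted p 0.918), and its pair means of 0.42 and -0.53 had opposite signs. The mean of ELO1 was -0.27 ± 0.34 (SD, n = 4; limma adjusted p 0.386), and -0.11 without array 2. The mean of ELO3 was -0.38 ± 0.25 (SD, n = 4), or 1.30-fold. Its limma adjusted p was 0.194 over the 4 arrays and 0.0329 with the term for the pair. The pair means of ELO3 were -0.32 and -0.43. The paralogs ELO2 and ELO3 thus lay near each other on array 2 and apart on arrays 1 and 3.

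FAA1 and FAA4 encode the main acyl-CoA synthetases for imported long-chain fatty acids. FAA1 (YOR317W) had log2 ratios of -0.01, -0.76, -0.28 and -0.35, negative on every array but close to 0 on array 1. FAA4 (YMR246W) had -0.49, -0.66, -0.16 and -0.67, negative on every array, with the value nearest to 0 on array 3. The mean of FAA4 was -0.50 ± 0.24 (SD, n = 4), or 1.41-fold, with a 95% interval of -0.81 to -0.18, the most negative mean of the 9 members. Its limma adjusted p was 0.111 over the 4 arrays and 0.00557 with the term for the pair. FAA4 ranked 296 from the most negative of 5539 named genes. FAA1 had a mean of -0.35 ± 0.31 (SD, n = 4; limma adjusted p 0.251, and 0.0309 with the term for the pair), and -0.22 without array 2. FAA1 minus FAA4 was 0.48, -0.10, -0.12 and 0.32 on arrays 1 to 4, so neither paralog was the lower one throughout. Probe sequences were not used here, and signal shared between related genes such as these was not tested.

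ELO3, FAA1 and FAA4 were the 3 members with negative ratios on all 4 arrays, as had 16.4% of all features. No member was positive on all 4, where 14.7% of all features were. Without array 2 the number negative on every remaining array was 5, with FAS2 and ACC1 added, and 20.2% of all features were so then. After turning the signs of arrays 2 and 4 it was 1, FAS1, beside 18% of all features. The 95% interval of the 4-array mean spanned 0 for 7 members, all but ELO3 and FAA4. On array 2 the members OLE1, ELO1, ELO2, ELO3, FAA1 and FAA4 fell into the lowest part of the array, with FAA4 lower than all but 8.47% of features, ELO1 than all but 6.03% and OLE1 than all but 12.5%. FAS1, FAS2 and ACC1 were above the median there, higher than 76.3%, 63.6% and 65.5% of features.

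**Figure D2:**
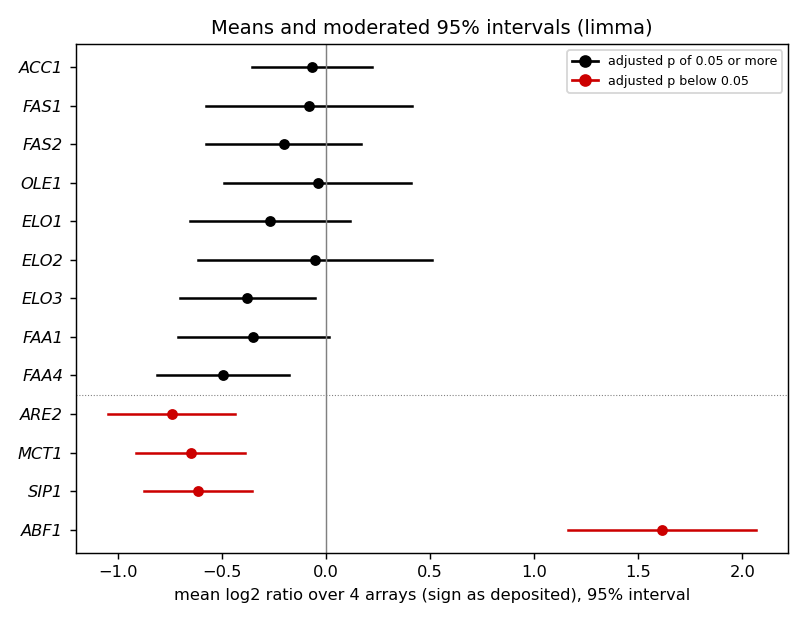
Mean log2 ratio over the 4 arrays (dot, sign as deposited) with its moderated 95% interval from limma (line) for the 9 members above the dotted line and for the 4 called genes of related lists below it. The intervals of 7 members cross 0, those of ELO3 (-0.38) and FAA4 (-0.50) do not, and red marks an adjusted p below 0.05.

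The members differed in how their ratios were ordered between the array pairs. OLE1, ELO1, ELO2, FAA1 and FAA4 had both ratios of arrays 2 and 4 below both of arrays 1 and 3, as did 40.0% of all features, while FAS1 and FAS2 had both above, as did 34.1%. ACC1 and ELO3 had neither order. Fitted alone with limma, arrays 2 and 4 called OLE1, ELO1, ELO2, ELO3, FAA1 and FAA4, all negative, at adjusted p below 0.05, where 42.0% of all features were called. Arrays 1 and 3 alone called FAS2 as negative and ELO2 as positive, where 33.3% of all features were called. Each such fit rests on 2 arrays that resemble each other. ELO2 was thus called in both fits with opposite signs, with means of 0.42 on arrays 1 and 3 (limma adjusted p 0.0336) and -0.53 on arrays 2 and 4 (0.00861).

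**Figure D3:**
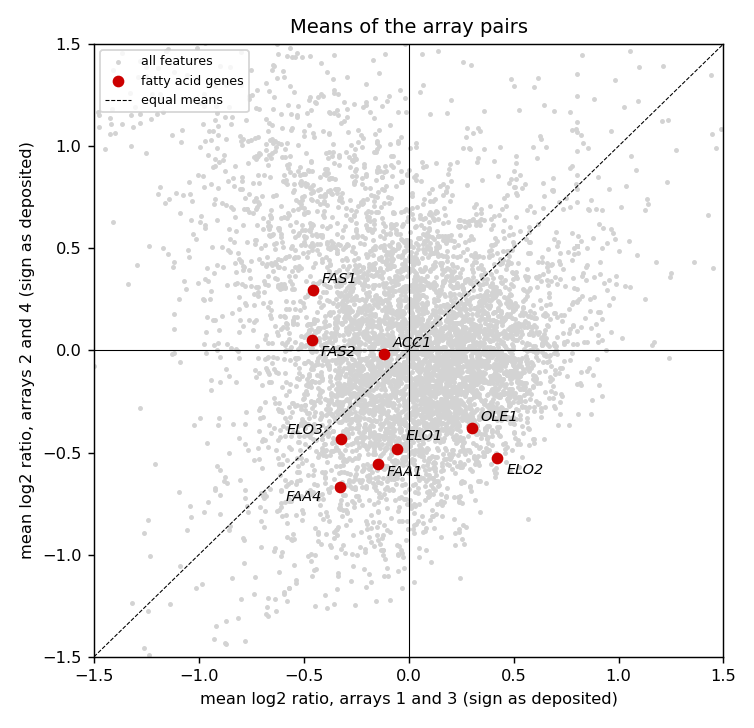
Mean log2 ratio on arrays 2 and 4 (vertical axis) against that on arrays 1 and 3 (horizontal axis), signs as deposited, for all features (grey, of which 131 lie outside the axes) and the 9 members (red). FAS1 lies in the upper left (-0.46 and 0.29), OLE1 and ELO2 lie in the lower right, and ELO3, FAA1, FAA4, ELO1 and ACC1 lie in the lower left.

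The members differ in gene length, and ratios on these arrays moved with length. ACC1, FAS1 and FAS2 span 6702, 6156 and 5664 base pairs in the RefSeq gene table, and the other 6 members 933 to 2103. The 87 named genes of 5000 base pairs or more had median log2 ratios of -0.24, 0.52, -0.42 and 0.43 on arrays 1 to 4, and the 1496 genes of 500 to below 1000 base pairs had 0.09, -0.11, 0.15 and -0.06. Across 5535 named genes, which are not independent replicates, Spearman's rho between length and log2 ratio was -0.17, 0.20, -0.31 and 0.14. Set against the median of its own length class, FAS1 was at 0.03, -0.12, -0.29 and -0.24 on arrays 1 to 4, so that the positive values on arrays 2 and 4 turned negative. FAS2 was at -0.33, -0.34, 0.06 and -0.50, and ACC1 at 0.15, -0.31, 0.26 and -0.67. FAA4 and ELO3 were negative on all 4 arrays against their classes, with means of -0.46 and -0.37, and ELO1 was too, at -0.07, -0.65, -0.29 and -0.15. FAA1 was not, at 0.07, -0.81, -0.16 and -0.35. ELO2 was at 0.46, -0.65, 0.32 and -0.33 and OLE1 at 0.40, -0.48, 0.15 and -0.20, with the signs they had before. The part of gene length in the ratios of the members was not tested.

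**Figure D4:**
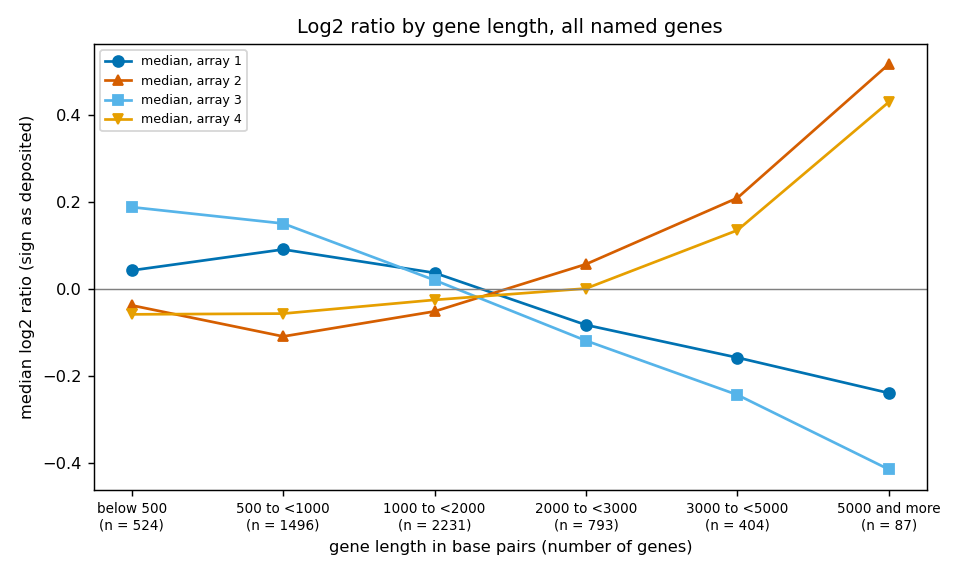
Median log2 ratio (vertical axis, sign as deposited) of named genes by class of gene length (horizontal axis, number of genes in parentheses) on each array. Genes of 5000 base pairs or more, among them ACC1, FAS1 and FAS2, have medians of -0.24 and -0.42 on arrays 1 and 3 and of 0.52 and 0.43 on arrays 2 and 4.

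The genes of the remaining enzymes of the elongation cycle resembled different members. PHS1, the dehydratase gene of the cycle, had log2 ratios of 0.36, -0.70, 0.28 and -0.38 on arrays 1 to 4, near those of ELO2 on each array. IFA38, the ketoacyl reductase gene, had the same order of signs with 0.11, -0.39, 0.17 and -0.16. TSC13, the enoyl reductase gene, had -0.40, -0.67, -0.54 and -0.18, negative throughout like ELO3. With LAC1, a ceramide synthase gene that uses the very long chains (mean -0.51 ± 0.20, SD, n = 4), TSC13 (-0.45 ± 0.21) had the largest means of the 11 measured genes of elongation and very-long-chain use. Limma called 0 of these 11, where it called 3.23% of all features. At an unadjusted p below 0.05 it found 2, beside 20.8% of all features. With the term for the pair it called 2, LAC1 and TSC13, where that fit called 32.7% of all features. The median of their means was -0.11, and 8 of the 11 were negative, beside 47.5% of all features. On arrays 2 and 4 each, 10 of the 11 ratios were negative, against 5 and 4 on arrays 1 and 3. The count of negative means thus depends on the signs of arrays 2 and 4, whose direction is not known. PHS1 and IFA38 were named after their values were seen.

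Of the other 75 measured genes of the pathway, in 7 lists, limma called 4, beside 3.23% of all features: ABF1 with a positive mean and ARE2, MCT1 and SIP1 with negative ones. ARE2, for the enzyme that joins acyl-CoA to sterol, had log2 ratios of -1.05, -0.59, -0.74 and -0.58 on arrays 1 to 4 and a mean of -0.74 ± 0.22 (SD, n = 4; limma adjusted p 0.0446). MCT1, for the malonyl transferase of mitochondrial fatty acid synthesis, had -0.48, -0.82, -0.65 and -0.66 and a mean of -0.65 ± 0.14 (limma adjusted p 0.0421). SIP1, for a beta subunit of the Snf1 kinase complex that restrains acetyl-CoA carboxylase, had -0.48, -0.55, -0.67 and -0.76 and a mean of -0.62 ± 0.12 (limma adjusted p 0.0456). All 3 kept 1 sign on every array. Their adjusted p-values were close to the threshold: quantile normalization ended the calls of ARE2 (0.0503), MCT1 (0.0583) and SIP1 (0.0738), as did leaving out any 1 array (0.116 to 0.277). The call of ABF1 (limma adjusted p 0.0254) was also lost without any 1 array, at 0.0607 to 0.188.

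Acyl-CoA handling and acetyl-CoA supply held no called gene, where limma called 3.23% of all features. Of 7 genes of uptake, activation and acyl-CoA handling 4 had negative and 3 positive means, with a median of -0.14. In limma 3 of them had an unadjusted p below 0.05, as had 20.8% of all features. ACB1, for the acyl-CoA binding protein, had -0.31, -0.85, -0.06 and -0.88, lower on arrays 2 and 4 like FAA1, and ANT1, for the peroxisomal adenine nucleotide carrier, had a mean of -0.49 ± 0.33 (SD, n = 4). FAA2, for the peroxisomal acyl-CoA synthetase, had 0.30, 0.65, 0.32 and 0.44, positive throughout where its relative FAA4 was negative throughout (limma adjusted p 0.114). Of the 6 genes of acetyl-CoA supply and enzyme modification 5 had negative means, beside 47.5% of all features, with a median of -0.13. In limma 2 of them had an unadjusted p below 0.05, beside 20.8% of all features. ALD6, for cytosolic acetaldehyde dehydrogenase, had -0.32, -1.32, -0.47 and -1.08 and the largest of these means at -0.80 ± 0.48 (limma adjusted p 0.102). ACS2, for the acetyl-CoA synthetase used on glucose, had -0.49, -0.65, -0.36 and -0.37 (limma adjusted p 0.0875). Both were negative on all 4 arrays. FAA2 was named after its values were seen.

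Genes of fatty acid breakdown had mostly positive means. Of 11 genes of peroxisomal oxidation 9 had positive and 2 negative means, where 47.5% of all features had negative ones. Their median was 0.30, against -0.20 for the members and 0.02 over all features. This contrast depends on the signs of arrays 2 and 4, whose direction is not known. Arrays 2 and 4 carried the positive means: the medians of the 11 genes there were 0.43 and 0.47. On arrays 1 and 3 the medians were -0.06 and -0.02, and 6 of the 11 were negative on each. Limma called 0 of the 11 (3.23% of all features), with 2 at an unadjusted p below 0.05 (20.8% of all features). The fit with the pair as a term called 6 (32.7% of all features). POX1, for acyl-CoA oxidase, had 0.30, 1.67, 0.31 and 0.47, positive throughout with array 2 far above the rest. SPS19, for the peroxisomal dienoyl-CoA reductase, had -0.27, 0.71, 0.60 and 0.81. The mean of POX1 was 0.69 ± 0.66 (SD, n = 4; limma adjusted p 0.216) and that of SPS19 0.46 ± 0.50 (0.272). Of the 8 genes of mitochondrial fatty acid synthesis 5 had positive means, with a median of 0.11. MCT1 was the only one called, where limma called 3.23% of all features. HFA1, the mitochondrial counterpart of ACC1 and 6372 base pairs long, had -0.77, 0.16, -0.43 and 0.45, the order of signs of FAS1 (named after its values were seen). Of 14 genes of acyl transfer to glycerolipid and sterol 7 had negative and 7 positive means, with a median of -0.05.

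**Figure D5:**
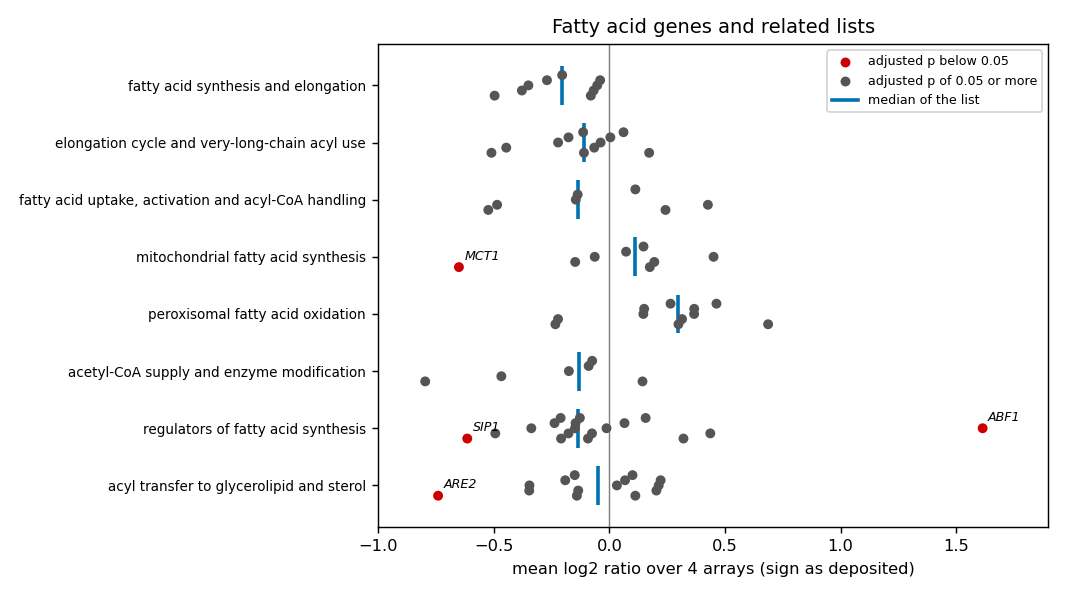
Mean log2 ratio over the 4 arrays (horizontal axis, sign as deposited) of each measured gene of the 9 members and of the 7 related lists (rows), with the median of each list as a blue line and called genes in red. The members have a median of -0.20 and 0 calls, and the genes of peroxisomal oxidation a median of 0.30 and 0 calls.

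Of the 18 regulators measured, 13 had negative means, beside 47.5% of all features, with a median of -0.14. Limma called 2 of the 18, ABF1 and SIP1, where it called 3.23% of all features. ABF1 is itself the gene mutated in abf1-1 cells. INO4 had 0.42, 0.09, 0.52 and 0.25, positive on every array, while its partner INO2 had 0.00, -0.32, 0.03 and -0.29. The repressor gene OPI1 had a mean of -0.13 ± 0.18 (SD, n = 4). None of INO2, INO4 and OPI1 passed, with limma adjusted p of 0.532, 0.208 and 0.575. Of the activators of OLE1, MGA2 had -0.11, -0.09, -0.25 and -0.15, and SPT23 had -0.48, -0.26, -0.37 and -0.24. Both were negative on every array, whereas OLE1 changed sign between the pairs, and limma adjusted p was 0.446 and 0.146. Among the factors with sites described in the FAS1 and FAS2 promoters, RAP1 had a mean of -0.49 ± 0.25 and no call (limma adjusted p 0.117). REB1 had -0.12, 1.44, -1.14 and 1.56, negative on arrays 1 and 3 and positive on arrays 2 and 4 as FAS1 was, with a limma adjusted p of 0.662.

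The named genes nearest to each of FAS1, FAS2 and OLE1 by Euclidean distance over the 4 log2 ratios were sought among the 5530 other named genes. The nearest genes lie below the median distance by construction, so the distances are descriptive and test no link between genes. For FAS1 these were RFX1, APM3 and UTP14, at 0.16, 0.17 and 0.20 against a median distance of 1.18. For FAS2 they were HRD3, LAM1 and PXL1, at 0.07, 0.08 and 0.10 against a median of 1.06. For OLE1 they were MRPL19, SLY41 and ERG8, at 0.09, 0.09 and 0.10 against a median of 0.93. ERG8 encodes phosphomevalonate kinase of sterol synthesis. Among the members the closest were ELO1 and FAA1 at 0.21 and OLE1 and ELO2 at 0.28, and FAS1 and ELO2 were the farthest apart at 1.76. FAS2 was the member nearest to FAS1, at 0.60, and FAS1 minus FAS2 was 0.36, 0.22, -0.35 and 0.26 on arrays 1 to 4.

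Genes beside the members on the chromosomes were found by the order of the RefSeq gene table of assembly R64. Of 18 flanking genes 16 were measured, and no annotated gene overlapped a member. Limma called 0 of the 16, where it called 3.23% of all features. On all 4 arrays 4 of the 16 were negative and 1 positive, beside 16.4% and 14.7% of all features. TIM23, which lies across the upstream region of ACC1 and is read away from it, had -0.63, -0.74, -0.41 and -0.54 (limma adjusted p 0.0539). TIM23 was thus negative on every array, while ACC1 was at 0.20 on array 2. CDC6 lies in the same way upstream of ELO1 and had -0.72, -0.47, -0.68 and -0.42 (limma adjusted p 0.0581), while ELO1 was at 0.03 on array 1. SDS23, upstream of OLE1, had 0.16, -0.43, -0.12 and -0.38. SMM1, on the other side of ACC1 from TIM23, had -0.80, -0.49, -0.47 and -0.49 (limma adjusted p 0.0632). These neighbours were named after their values were seen.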

How the data were processed

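The authors deposited 1 log ratio per probe and array, read here as log2 from its range (6226 probes, 4 arrays, 0 missing values, 0 columns without a sample); the medians were -0.01, 0.03, -0.03 and 0.02, and scanner, background correction, normalization, centring, direction and log base are stated nowhere in the sources used here. Another log base would multiply all ratios by 1 factor. Probes were named through the platform annotation (5576 with 1 gene, 0 with several, 650 with none), with 5572 found in the RefSeq table of assembly R64, used for names, length and gene order. Arrays were centred on their medians and probes of a gene averaged, giving 6189 features. Each mean was tested against 0, two-sided, with lmFit and eBayes of limma 3.58.1 in R 4.3.3 (intercept only, Benjamini-Hochberg over all features, called below 0.05), after the code was tested on simulated data. Tables and plots used Python 3.11.15, pandas 2.3.3 and matplotlib 3.10.9. Members and lists were chosen with earlier results of these data known. Named are the members, called genes of the 7 lists (76 genes, TSC3 not matched), the 2 largest means of lists without calls, 8 regulators and the 3 nearest genes of FAS1, FAS2 and OLE1.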

Additional observations from a re-analysis of the deposited data

Results flagged for a closer look

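In POX1 the ratio of 1.67 on array 2 stood apart from 0.30, 0.31 and 0.47 on arrays 1, 3 and 4: its gap to the nearest value was 0.879 of the whole range, above Dixon's 95% critical value for 4 values. It was the only one of 28 genes examined in this way, and chance flags about 1 in 20.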

How the results depend on the processing

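Each ratio sets the 2 strains against each other within 1 array, so the test against 0 already compares them within arrays. The labels give no further pairing of the 4 arrays, which form 1 group. The count of 200 called features became 98 with quantile normalization, 2021 with the pair term, 2059 on arrays 1 and 3 alone, 2602 on arrays 2 and 4 alone, 302 after turning the signs of arrays 2 and 4, and 0 to 22 without 1 array (0 without arrays 1, 3 or 4, where 898, 1066 and 752 had an unadjusted p below 0.05). Of the 302 features called with turned signs 301 were negative and 1 positive, against 115 and 85 of the 200. Called members were 3 with the pair term, 2 on arrays 1 and 3 alone, 6 on arrays 2 and 4 alone, and 0 under the other settings run. The 4 called genes of other lists became 1, 23, 27 and 32 with quantile normalization, the pair term, arrays 1 and 3 and arrays 2 and 4, and 0 without any 1 array; with turned signs the number was 4, but ABF1, ARE2, MCT1 and SIP1 were not among them. Members negative on every array used numbered 6 on arrays 1 and 3 (40.2% of all features) and 6 on arrays 2 and 4 (41.1%). They numbered 1 with turned signs (18% of all features). Without 1 array they numbered 3 to 5 (18.3% to 20.9% of all features), with 5 without array 2. Members with negative means numbered 3 with turned signs (46.1% of all features) and 7 to 9 without 1 array (46.3% to 50.3%). On arrays 2 and 4 alone FAS1 and FAS2 turned positive (0.29 and 0.053), and on arrays 1 and 3 alone OLE1 and ELO2 did (0.30 and 0.42). After turning those signs, OLE1, ELO1, ELO2, ELO3, FAA1 and FAA4 became 0.34, 0.21, 0.47, 0.055, 0.20 and 0.17, MCT1 and SIP1 0.087 and 0.041, and ABF1 -0.14. Leaving out 1 array gave means of -0.24 to 0.13 for FAS1 (positive without array 3), -0.20 to 0.12 for OLE1 and -0.24 to 0.16 for ELO2 (both positive without array 2 or 4). The cause was not tested. No centring, equal spread, robust eBayes, array weights (whose estimate stopped before convergence), single probes and leaving out features at a value shared by many probes turned no member's sign and changed no member's call. Background correction and a filter on dim spots need spot brightness and were not run.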
